A study of Rattus norvegicus with 13 samples.

Results

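Across smooth muscle cell (SMC) lines from rat aorta, 2032 sites carried more of the histone mark H3K4me2 in Myocd-LSD1 cells than in Myocd-LSD1NF cells and overlapped no peak of the FLAG epitope. They were taken from the authors' deposited table of 5183 sites with a false discovery rate (FDR) of at most 0.05. Of these, 3009 had the higher level in Myocd-LSD1 cells, and 2032 of those shared not a single base with a FLAG peak. A site received the gene that the authors' annotation gives for the Myocd-LSD1 H3K4me2 peak under it, usually the gene of the nearest transcription start site (TSS). Annotations and distances to a TSS are likewise those of that peak, while a site is called over a TSS only where an annotated TSS lies inside the site itself. All but 1 of the 2032 sites lay on such a peak, and together they named 1746 genes. For comparison, sites lower in Myocd-LSD1 cells lay on such a peak in 683 of 1680 cases without FLAG and 432 of 494 with FLAG. The other lower sites took the position of any Myocd-LSD1NF peak under them and were given no gene. Counts of lower sites per gene, and of genes with one, leave them out and are minimum counts. H3K4me2 had been profiled by CUT&Tag, in which an antibody directs the Tn5 transposase to cut DNA beside the bound epitope, in Myocd-LSD1, Myocd-LSD1NF and control (cell line WT) SMC, with 3 samples each. FLAG had been profiled in 4 samples of FLAG-tagged Myocd-LSD1 cells. All lines grew in DMEM/F12 with fetal bovine serum. What NF means is not written in the labels, nor how the lines were made, whether a line is a single clone or whether samples were separate cultures.

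H3K4me2, dimethylated lysine 4 of histone H3, lies on promoters and enhancers that are active or held ready for use, and it is placed by the KMT2 methyltransferases. LSD1, the product of Kdm1a, is a demethylase that removes methyl groups from this lysine. Myocardin, the product of Myocd, is a coactivator of serum response factor and drives the contractile genes of SMC. A line named Myocd-LSD1 thus joins the names of a factor that goes to SMC genes and of an enzyme that erases the mark, and a FLAG peak reports where the tagged protein was found. The sites described here had more of the mark in the Myocd-LSD1 line, at places where no FLAG peak was called.

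The measurements behind these sites set limits on what can be compared. Levels are the log2 of the mean concentration per line in the authors' deposited table. No value per sample and no spread between replicates can therefore be shown. Because the sites were selected on the difference between these 2 lines, that difference is given as a description, without a test. Each line had a single peak list, with 42405 peaks for Myocd-LSD1, 42727 for Myocd-LSD1NF and 42672 for control, and 26480 for FLAG. Whether a list pools replicates is not stated, and the depth of the libraries is unknown. Among genes that define smooth muscle, Acta2, Tagln and Cnn1 had a promoter peak in the Myocd-LSD1 list. Myh11, the smooth muscle myosin heavy chain, had no peak there. It had 3 peaks in the control list and 2 in the Myocd-LSD1NF list, with 1 promoter peak in each. None of these 4 genes had a site among the 2032.

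The promoters of 4 genes whose sites stood out are printed here because those sites lie on or next to the printed TSS. Artn and Gad2 belong to the largest differences, Slc44a2 to the highest levels among sites at the lowest Myocd-LSD1NF value, and Runx2 to the osteogenic genes. The sequences are RefSeq promoters of the rat build GRCr8, with 250 bases before and 50 bases after the TSS, since no genome of the build of the files, rn6, was used here. Each was matched on the transcript of the site and on the place of its TSS within the gene. Capitals mark GGGCGG on either strand, a motif found in 34.9% of 27457 RefSeq promoters.
Artn: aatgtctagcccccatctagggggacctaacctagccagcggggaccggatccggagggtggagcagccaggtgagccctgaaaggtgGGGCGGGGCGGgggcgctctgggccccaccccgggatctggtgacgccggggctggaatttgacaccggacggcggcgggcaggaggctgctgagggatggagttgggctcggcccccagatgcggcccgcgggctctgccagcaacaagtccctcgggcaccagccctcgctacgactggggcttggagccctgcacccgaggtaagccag
Gad2: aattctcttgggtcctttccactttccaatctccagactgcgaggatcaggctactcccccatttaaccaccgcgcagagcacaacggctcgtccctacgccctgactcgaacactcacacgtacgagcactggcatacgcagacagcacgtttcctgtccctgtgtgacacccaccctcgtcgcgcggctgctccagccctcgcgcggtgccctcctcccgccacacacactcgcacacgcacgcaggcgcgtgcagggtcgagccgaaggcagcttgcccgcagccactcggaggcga
Slc44a2: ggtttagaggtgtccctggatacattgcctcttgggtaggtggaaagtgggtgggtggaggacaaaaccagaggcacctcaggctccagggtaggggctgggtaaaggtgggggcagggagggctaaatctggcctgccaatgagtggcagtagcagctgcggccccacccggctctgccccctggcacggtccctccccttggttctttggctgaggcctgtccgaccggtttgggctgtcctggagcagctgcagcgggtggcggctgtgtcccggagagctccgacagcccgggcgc
Runx2: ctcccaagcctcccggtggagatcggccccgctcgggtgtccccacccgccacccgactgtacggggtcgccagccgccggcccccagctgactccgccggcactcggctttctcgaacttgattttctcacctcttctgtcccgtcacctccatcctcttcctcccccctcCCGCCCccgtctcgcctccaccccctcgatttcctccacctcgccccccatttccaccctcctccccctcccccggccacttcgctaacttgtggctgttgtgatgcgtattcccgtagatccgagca
They lie at chr5:136753408-136753707 on the minus strand (Artn), chr17:89671468-89671767 on the plus strand (Gad2), chr8:28164122-28164421 on the plus strand (Slc44a2) and chr9:23742990-23743289 on the plus strand (Runx2). All 4 are rich in G and C, at 70.3% for Artn, 63.7% for Gad2, 65.3% for Slc44a2 and 66.7% for Runx2. Artn held 2 matches to GGGCGG that overlap by their last and first G, and Runx2 held 1 match, on the other strand. Searches on both strands found no match in the 4 windows to the CArG box (present in 1.64% of the RefSeq promoters), to TGANTCA (present in 7.33%), to GGAATG (present in 13.9%), to TGTGGT (present in 16.9%) or to ACAAAG (present in 18.3%). A match, or the lack of one, describes only the letters of these windows.

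The sites ran from strong peaks of unequal height in both lines to places with almost no reads in the Myocd-LSD1NF line. In the authors' deposited table their level in Myocd-LSD1 cells ranged from 3.03 to 9.10 with a median of 5.21, against a range of -0.11 to 8.28 and a median of 2.33 in Myocd-LSD1NF cells. The difference, Myocd-LSD1 minus Myocd-LSD1NF on the log2 scale, was between 0.55 and 8.66, with a median of 2.65 (95% interval of the median 2.55 to 2.75) in the authors' deposited table. The 977 higher sites that did overlap a FLAG peak had higher levels, with medians of 6.12 in Myocd-LSD1 cells and 4.10 in Myocd-LSD1NF cells, and a smaller median difference of 1.80 (1.72 to 1.94) in the authors' deposited table. At 382 of the 2032 sites (18.8%) the Myocd-LSD1NF level stood at -0.11, the lowest value of its column in the authors' deposited table. For these the size of the difference depends on that floor. Among higher sites with a FLAG peak, 72 of 977 (7.37%) stood at the floor. The sites without FLAG were also narrower, with a median width of 668 bp beside 855 bp. Neither contrast between the classes was tested, since both classes were cut from the same table. Higher sites without FLAG made up 5.59% of the roughly 36353 sites that the authors' comparison appears to have tested, a number estimated from the FDR, rank and p-value of the deposited rows, and all higher sites made up 8.28%. As the selection used this contrast, nothing is read from those shares.

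**Figure D1:**
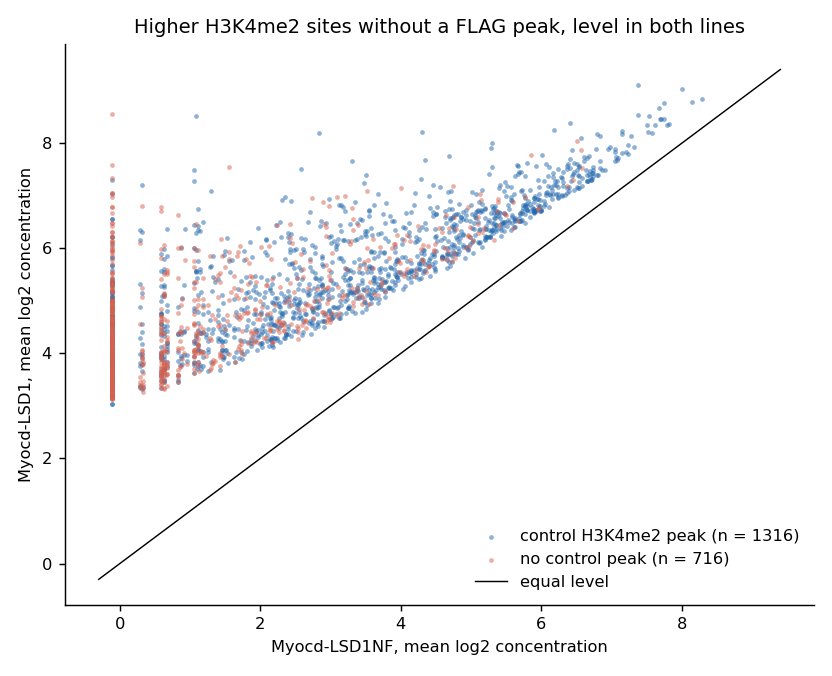
Each point is 1 of the 2032 higher sites without a FLAG peak, coloured by whether a control H3K4me2 peak overlaps it. The log2 of its mean concentration is given for Myocd-LSD1 cells (y axis) and Myocd-LSD1NF cells (x axis). The line marks equal levels. All points lie above the line by the choice of sites, and the column of 382 points at -0.11 is the floor of the Myocd-LSD1NF values.

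The control line took no part in the selection, and its peaks divided the sites. An H3K4me2 peak of the control line overlapped 1316 of the 2032 sites, or 64.8% (exact 95% binomial interval 62.6 to 66.8, counting error only). That share was 78.3% (75.6 to 80.8) for higher sites with FLAG, 80.1% (78.1 to 81.9) for lower sites without FLAG and 96.4% (94.3 to 97.8) for lower sites with FLAG. Over the whole Myocd-LSD1 list the share was 76.8%. The intervals of the higher sites without FLAG and of the other classes do not overlap, but sites of 1 list are not replicates and the difference has no test over samples. Where a control peak was present it was not weak, with a median fold enrichment of 7.28 beside 6.29 over all control peaks, as the authors' peak caller gave it. With only the strongest 50% of control peaks by q-value counted, 36.8% of the sites had one.

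Setting the control and Myocd-LSD1NF lists together gave 3 large groups of sites. In 698 (34.4%) the mark was called in all lines, and the median difference was 1.47 with medians of 6.33 in Myocd-LSD1 cells and 4.68 in Myocd-LSD1NF cells per the authors' deposited table. In 618 (30.4%) the peak was called in Myocd-LSD1 and control cells and was missing from the Myocd-LSD1NF list. These had a median difference of 3.27 and medians of 4.73 in Myocd-LSD1 cells and 1.33 in Myocd-LSD1NF cells per the authors' deposited table. In 655 (32.2%) neither of the other lines had a peak, with a median difference of 3.48 and medians of 4.51 in Myocd-LSD1 cells and 0.63 in Myocd-LSD1NF cells per the authors' deposited table. The remaining 61 sites (3.00%) had a Myocd-LSD1NF peak and no control peak. The sites called in Myocd-LSD1 cells alone and those missing from the Myocd-LSD1NF list alone were thus close in number. In all, 62.6% had no Myocd-LSD1NF peak, beside 33.8% of the higher sites with FLAG. These shares use the libraries that selected the sites and are a description.

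**Figure D2:**
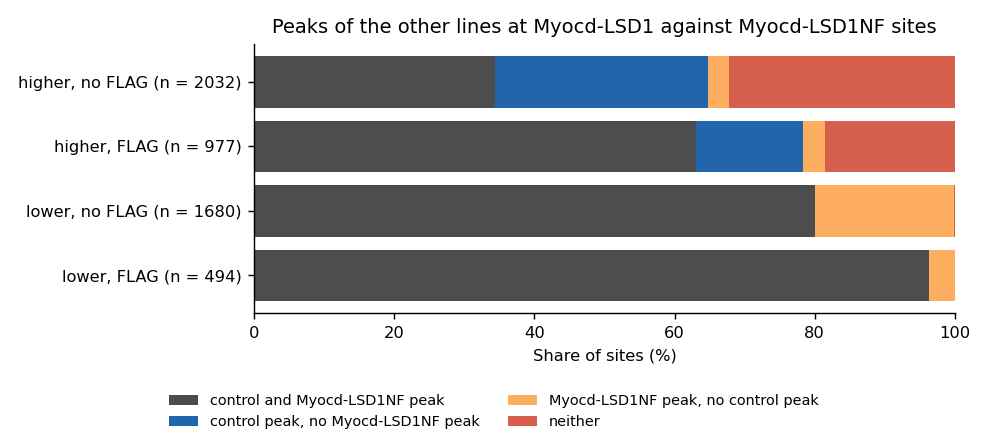
Bars show, for each class of sites, the share (%) with an H3K4me2 peak in control cells, Myocd-LSD1NF cells, both or neither. Among the 2032 higher sites without FLAG the shares were 34.4% with both, 30.4% with the control peak only, 3.00% with the Myocd-LSD1NF peak only and 32.2% with neither.

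The control peaks became scarcer as the difference grew. Of the 508 sites with the smallest differences (0.55 to 1.64 in the authors' deposited table), 87.4% had a control peak (84.2 to 90.2). Among the next 508, with differences of 1.65 to 2.65 in the authors' deposited table, the share was 73.2%, and it was 53.5% among the 508 after those. Of the 508 sites with the largest differences (3.66 to 8.66 in the authors' deposited table) 44.9% (40.5 to 49.3) had one. The level in Myocd-LSD1 cells moved with it, with a median of 6.49 at the smallest differences and 4.88 at the largest in the authors' deposited table, and the part of the level in this pattern was not tested.

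By position, promoters held the largest part. Within 3 kb of a TSS lay 940 sites, or 46.3% (44.1 to 48.5), beside 38.8% (35.7 to 41.9) of higher sites with FLAG, 23.6% (21.6 to 25.7) of lower sites without FLAG and 20.4% (17.0 to 24.3) of lower sites with FLAG. Over all Myocd-LSD1 peaks the share was 44.6%, near that of the 2032 sites. The site reached over a TSS itself in 426 cases (21.0%). Introns held 25.2%, distal intergenic sequence 21.0% and exons 5.41%. Position and the control line went together. A control peak lay at 91.8% (88.8 to 94.2) of the sites over a TSS, at 78.6% (75.9 to 81.2) of the promoter sites, at 54.2% (49.4 to 59.0) of the distal sites and at 49.6% (45.2 to 54.0) of the intronic sites. Of the 655 sites called in Myocd-LSD1 cells alone, 27.6% lay at promoters, beside 60.7% of the 698 sites called in all lines. The same order was seen in higher sites with FLAG, at 12.2% and 49.4%. Among lower sites without FLAG that had a Myocd-LSD1NF peak, promoters held 15.0% without a control peak and 25.7% with one.

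The nearest FLAG peak was usually not far away. The gap from a site to it ran from 51 bp to 2465279 bp with a median of 17289 bp, and 129 sites (6.35%, 5.33 to 7.50) had one within 1 kb. Within 10 kb there were 716 (35.3%) and within 100 kb 1785 (87.9%). Lower sites without FLAG had a median gap of 18230 bp, and 2.32% (1.66 to 3.16) had a FLAG peak within 1 kb. Their shares were 31.6% within 10 kb and 88.7% within 100 kb, so a FLAG peak within 100 kb was as common there. The sites just inside and just outside the rule differed by little in position. Serpinb11 was 51 bp from a FLAG peak, Galk1 101 bp and Papss2, a sulfate donor synthase, 103 bp. Just outside were sites of Wwp2, LOC102552141 and Nckap5, which overlapped a FLAG peak by 22, 24 and 25 bp.

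Whether a higher site had a FLAG peak varied with its level. Among all 3009 higher sites, 15.9% (13.4 to 18.7) of the 753 with the lowest Myocd-LSD1 levels overlapped a FLAG peak. In 3 further sets of 752 sites with rising levels the shares were 28.3%, 34.6% and 51.1% (47.4 to 54.7). For comparison, 42.0% of all Myocd-LSD1 H3K4me2 peaks overlapped one. Both assays came from Myocd-LSD1 cells, and the part of signal strength in a missing FLAG peak was not tested.

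Genes with such a site often had FLAG elsewhere. Of the 1746 genes, 1126 (64.5%, 62.2 to 66.7) were named by at least 1 FLAG peak away from the site, beside 73.5% of the 18205 genes with a Myocd-LSD1 H3K4me2 peak. With only the strongest 50% of FLAG peaks used, the rule gave 2499 sites, and the share among the genes of those sites was 42.6%. FLAG lay within 3 kb of a TSS in 34.7% (32.5 to 37.0) of the 1746 genes, beside 49.5% (48.8 to 50.2) of those 18205 genes. The rule kept FLAG peaks off these sites, many of them at promoters, while the 18205 genes could have FLAG at any peak. The rule thus took part in both contrasts, and nothing is read from them. Of the 1746 genes, 165 also had a higher site with FLAG, and at least 81 also had a lower site. Among genes named below, Pde10a, Foxp1 and Cald1 had at least 2 lower sites each. Bmpr1b, Dlx3, Fam105a, Fbln1, Kdm2b, Runx2, Slc44a2, Sorbs2 and Tead1 had at least 1 each. One site was the rule, with 1530 genes having 1, 175 having 2 and 41 having 3 or more.

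The sites with the highest levels in Myocd-LSD1 cells came with high levels in Myocd-LSD1NF cells too. Ppp1r1b, which encodes the phosphatase inhibitor DARPP-32, had a level of 9.10 in Myocd-LSD1 cells and 7.37 in Myocd-LSD1NF cells at its promoter (rn6 chr10:86303191-86304891) in the authors' deposited table. Bsg (basigin, an inducer of matrix metalloproteinases) had 9.02 in Myocd-LSD1 cells and 8.0 in Myocd-LSD1NF cells per the authors' deposited table. Sbno2 had 8.76 and 7.74, and Jade2 8.79 and 8.14, in Myocd-LSD1 and Myocd-LSD1NF cells per the authors' deposited table. The uncharacterised LOC102552386 reached 8.83 in Myocd-LSD1 cells and 8.28 in Myocd-LSD1NF cells per the authors' deposited table, and at 0.55 it also had the smallest difference of all. Trim11 (0.56) had the next smallest difference in the authors' deposited table, followed by Bcl11a, a zinc finger factor of blood and neural development, and Dpf3, both at 0.57. All 8 had a control peak at the site.

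Among sites off the floor, the largest differences were found at Lmo7, Artn, Tgfb2 and Gad2. A site of Lmo7, an actin-associated LIM domain protein, at rn6 chr15:86363459-86364945 led with 8.52 in Myocd-LSD1 cells and 1.08 in Myocd-LSD1NF cells, a difference of 7.44 in the authors' deposited table. It lies 2916 bp from the nearest TSS and had a control peak. Artn, a neurotrophic ligand of the GDNF family, had 7.20 in Myocd-LSD1 cells and 0.31 in Myocd-LSD1NF cells over its TSS (rn6 chr5:136761512-136763331) per the authors' deposited table. Gad2, which makes the transmitter GABA from glutamate, had 7.49 in Myocd-LSD1 cells and 1.05 in Myocd-LSD1NF cells over its TSS (rn6 chr17:89170929-89173013) per the authors' deposited table. Both had a control peak and no Myocd-LSD1NF peak, and the Gad2 site was 214588 bp from the nearest FLAG peak.

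Tgfb2, a ligand of the TGF-beta family, placed 2 intronic sites in this group. They had 6.80 and 6.70 in Myocd-LSD1 cells, against 0.31 and 0.58 in Myocd-LSD1NF cells per the authors' deposited table, and neither had a control peak. Tacr1, the substance P receptor, had a distal site with 7.27 in Myocd-LSD1 cells and 1.05 in Myocd-LSD1NF cells per the authors' deposited table. Cbln2, a secreted synapse organiser, had 6.30 in Myocd-LSD1 cells and 0.31 in Myocd-LSD1NF cells over its TSS per the authors' deposited table. Tacr1 and Cbln2 had a control peak. Dennd1b had 6.78 in Myocd-LSD1 cells and 0.58 in Myocd-LSD1NF cells, and the antisense gene Hoxb5os 7.54 and 1.55, per the authors' deposited table. Neither of their sites had a control peak. The tenth, named Fam105a after its nearest TSS, lies in an intron of Trio, with 6.10 in Myocd-LSD1 cells and 0.28 in Myocd-LSD1NF cells per the authors' deposited table. Distal sites of LOC102554113 and LOC108350034, uncharacterised genes left out of this ranking, had slightly larger differences of 6.07 and 5.88 in the authors' deposited table, beside 5.82 for that site.

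At the floor of the Myocd-LSD1NF values, the highest sites were mostly absent from control cells as well. The highest had 8.55 in Myocd-LSD1 cells in the authors' deposited table and carries the name of F13b, a subunit of coagulation factor XIII, but lies in exon 18 of Aspm (rn6 chr13:56578188-56580585). It was followed by an intronic site of Fbxl17 with 7.59 in Myocd-LSD1 cells, a 3' UTR site of Paqr3 with 7.33, and sites near the promoters of Tfec with 7.29 and Dmrt2 with 7.05, all at -0.11 in Myocd-LSD1NF cells per the authors' deposited table. Nek7, a mitotic kinase, had 7.05 in Myocd-LSD1 cells and -0.11 in Myocd-LSD1NF cells per the authors' deposited table. A site of Arhgap32 had 6.79 and a pair of Lmo7 sites 6.79 and 6.67 in Myocd-LSD1 cells, again with -0.11 in Myocd-LSD1NF cells per the authors' deposited table. Slc44a2, a choline transporter, had 6.56 in Myocd-LSD1 cells and -0.11 in Myocd-LSD1NF cells over its TSS (rn6 chr8:22368548-22369262) per the authors' deposited table. Cyp27a1 had the same level over its TSS. The rankings by difference and by level at the floor leave out gene symbols that begin with LOC, among them the distal sites of LOC689258 and LOC102546326, with 7.04 and 6.98 in Myocd-LSD1 cells and -0.11 in Myocd-LSD1NF cells per the authors' deposited table. A control peak lay at the sites of Tfec, Slc44a2, Cyp27a1 and LOC689258, and at none of the others named here.

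Some of the sites lay close together on the genome. With neighbours no more than 100 kb apart joined, 101 sites formed 17 clusters of 5 or more. Another 663 formed 295 clusters of 2 to 4, and 1268 (62.4%) stood alone. There is no matching count for the other classes or for all H3K4me2 peaks, so the clusters are only a description. The cluster with the most sites lay in Robo1, a receptor for the guidance ligand Slit. It held 9 sites over 265 kb, 5 of them assigned to LOC108352378, whose TSS lies inside that locus. None of the 9 had a Myocd-LSD1NF peak, 2 had a control peak, and their differences ran from 2.75 to 6.21 with a median of 4.71 in the authors' deposited table. The highest Robo1 site had 6.10 in Myocd-LSD1 cells and -0.11 in Myocd-LSD1NF cells per the authors' deposited table. In the same stretch were 22 Myocd-LSD1 H3K4me2 peaks, 6 FLAG peaks and 1 higher site with FLAG.

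A cluster of 8 sites covered 96.7 kb from Arhgap32 to Kcnj5. Here 6 sites stood at the floor in Myocd-LSD1NF cells, with levels of 5.52 to 6.79 in Myocd-LSD1 cells in the authors' deposited table. Lmo7 itself held 8 sites over 122 kb, with differences between 1.28 and 7.44 in the authors' deposited table. That stretch also held 3 higher sites with FLAG and 6 FLAG peaks, and 4 of the 8 sites had a control peak. Foxp1, a forkhead repressor, had 7 sites over 172 kb with a smaller median difference of 1.68 in the authors' deposited table. At Foxp1 6 of the 7 sites had a control peak, none stood at the floor, and 1 lower site lay among them.

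**Figure D3:**
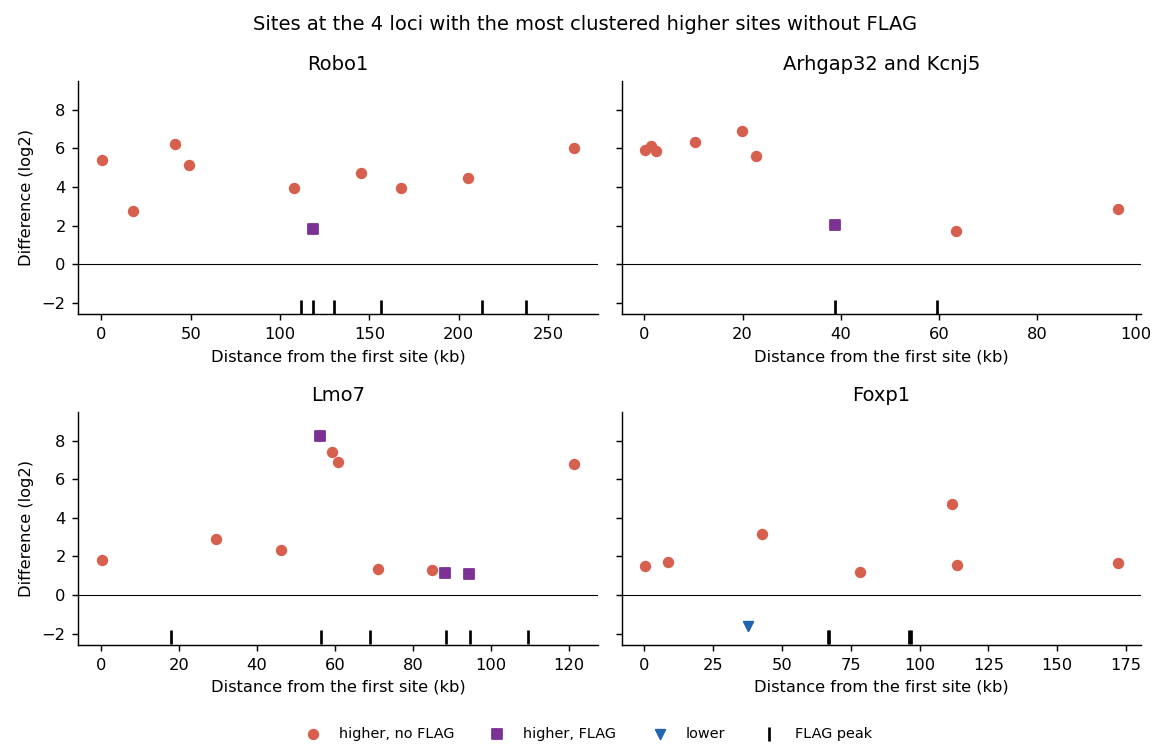
Each panel plots the sites of 1 locus by their distance in kb from the first site and by their difference (log2, Myocd-LSD1 minus Myocd-LSD1NF), with FLAG peaks as ticks below. The Robo1, Arhgap32 and Kcnj5, Lmo7 and Foxp1 loci held 9, 8, 8 and 7 higher sites without FLAG, and a single lower site was seen among them, at Foxp1.

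Other clusters were at Efna5, an ephrin ligand, with 6 sites of which 5 stood at the floor, and at the Hoxb genes, with 6 sites over 49.3 kb from Hoxb8 to Hoxb3. Nhsl1 and Fbxl17 had clusters of 5 sites each. Meis1, a TALE homeobox cofactor of Hox proteins, also had 5 sites, but these did not all join into a cluster at the 100 kb limit. At Meis1 the highest was 7.65 in Myocd-LSD1 cells and 6.84 in Myocd-LSD1NF cells, and the one with the largest difference had 6.95 and 2.73, in the authors' deposited table. Among genes with 2 or more H3K4me2 peaks, those with more peaks more often held a site. Counting the peaks of the Myocd-LSD1 and Myocd-LSD1NF lists together, a site was found in 3.93% of genes with 2 peaks, 7.86% of those with 3 to 4, 11.2% of those with 5 to 8 and 20.4% of those with 9 or more. Genes with a single peak stood at 10.8%.

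The genes with a site were then counted in 22 lists of genes that SMC or other cell types use. An H3K4me2 peak of either line named 19345 genes, of which 9.03% had such a site, and 4.55% had one within 3 kb of a TSS. The osteogenic and chondrogenic list had 12 of 28 genes, the neural and synaptic list 12 of 30, the neural crest list 5 of 15, and other homeobox, T-box and forkhead factors 16 of 48. Ion channels followed with 14 of 43, cyclic nucleotide signalling with 8 of 27, the TGF-beta and BMP pathway with 12 of 42, the WNT pathway with 12 of 47 and SMC regulators with 9 of 39. Nearer the 9.03% were the SMC contractile list with 5 of 40, the HOX list with 4 of 32 and cell cycle genes with 4 of 38. Below it were inflammatory genes with 2 of 30, the H3K4 methylation machinery with 1 of 26, and macrophage and housekeeping genes with 0 of 9 and 0 of 21. The median number of peaks per gene was 5 in the osteogenic list, 3 in the neural list, 8 in both the contractile and the TGF-beta list and 3 over all genes. Its part in the counts was not tested.

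**Figure D4:**
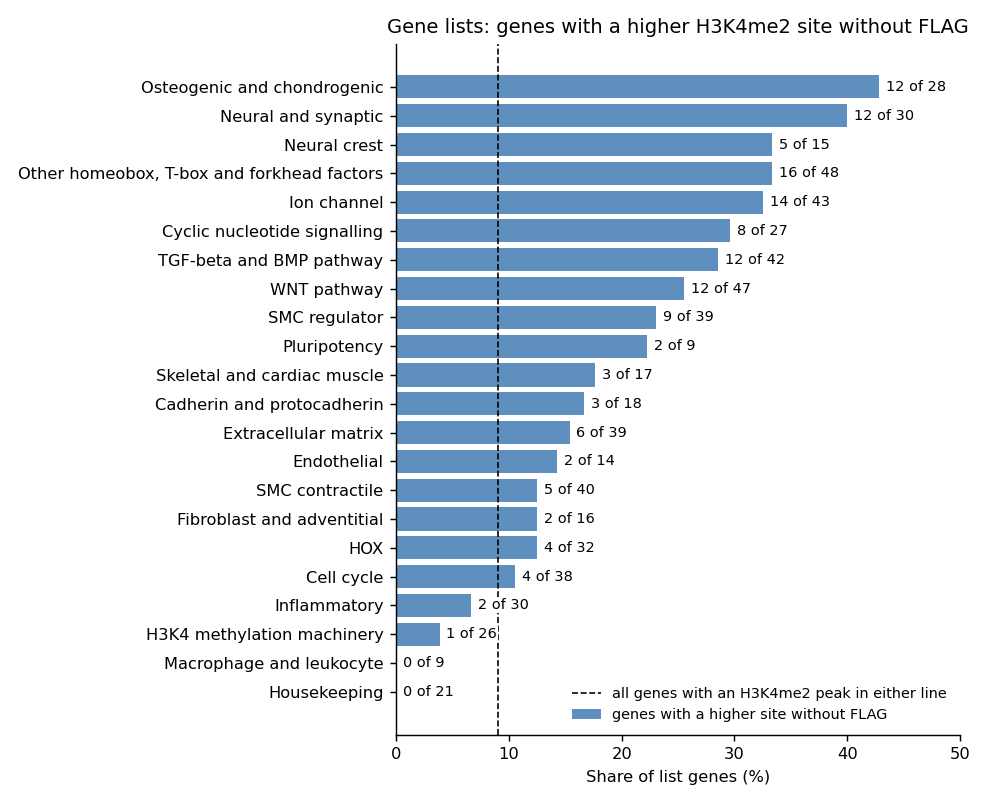
Bars give the share (%) of the genes of each list, among those with an H3K4me2 peak in Myocd-LSD1 or Myocd-LSD1NF cells, that have a higher site without FLAG, with the counts at the bar ends; the dashed line is the 9.03% of all such genes. The osteogenic and chondrogenic list (12 of 28) and the neural and synaptic list (12 of 30) are at the top, and housekeeping genes (0 of 21) are at the bottom.

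Genes of bone and cartilage carried 17 sites in 12 genes, 10 of the genes at a promoter. The median difference of the 17 was 3.45 in the authors' deposited table, beside 2.65 over all 2032 sites, and 9 of the 17 had a control peak. The Myocd-LSD1NF level stood at the floor in 5 of the 17, beside 18.8% of the 2032. As the sites were selected on the difference, nothing is read from these medians. Sox5, a partner of Sox9 in cartilage, had 3 sites. A site over a TSS and one 343 bp from it, both under a single Myocd-LSD1 peak, had 5.67 and 5.99 in Myocd-LSD1 cells, against -0.11 and 0.58 in Myocd-LSD1NF cells per the authors' deposited table. Sox9, the master factor of cartilage, had 6.76 in Myocd-LSD1 cells and 3.31 in Myocd-LSD1NF cells at 2590 bp from its TSS in the authors' deposited table, without a control peak. Sox6, the other Sox9 partner, had 3.74 in Myocd-LSD1 cells and -0.11 in Myocd-LSD1NF cells per the authors' deposited table.

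Runx2, the master factor of bone formation, had 3 sites and at least 1 lower site. The promoter site (rn6 chr9:18643624-18645025) had 6.90 in Myocd-LSD1 cells and 5.58 in Myocd-LSD1NF cells per the authors' deposited table, with peaks in both and in control, and a FLAG peak lay 610 bp away. Its intronic sites had 4.61 and 3.50 in Myocd-LSD1 cells, both against -0.11 in Myocd-LSD1NF cells per the authors' deposited table, and neither had a control peak. Runx3 had a distal site with 4.43 in Myocd-LSD1 cells and 2.51 in Myocd-LSD1NF cells per the authors' deposited table.

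Among the secreted factors, Pthlh, a regulator of growth plate cartilage, had promoter sites with 5.86 and 6.70 in Myocd-LSD1 cells, against 1.32 and 3.55 in Myocd-LSD1NF cells per the authors' deposited table. Ihh, the hedgehog ligand that acts with it, had 7.03 in Myocd-LSD1 cells and 5.97 in Myocd-LSD1NF cells over its TSS per the authors' deposited table. Gdf5, a BMP-like ligand of joints, had 6.17 in Myocd-LSD1 cells and 3.60 in Myocd-LSD1NF cells per the authors' deposited table and lacked a control peak. The homeobox gene Dlx3 had 3.91 in Myocd-LSD1 cells and 0.31 in Myocd-LSD1NF cells, and Dlx5 4.04 and 1.81, per the authors' deposited table. Of the matrix genes, Spp1 (osteopontin) had a distal site with 4.00 in Myocd-LSD1 cells and -0.11 in Myocd-LSD1NF cells, and Comp a promoter site with 6.66 and 5.47, in the authors' deposited table. Ihh and Runx3, among the 12 genes, also had a higher site with FLAG, and Runx2 and Dlx3 also had a lower site. Over all 28 genes of the list, 8 had a higher site with FLAG and at least 5 had a lower site. Neither count has a share over all genes beside it, so nothing is read from them.

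**Figure D5:**
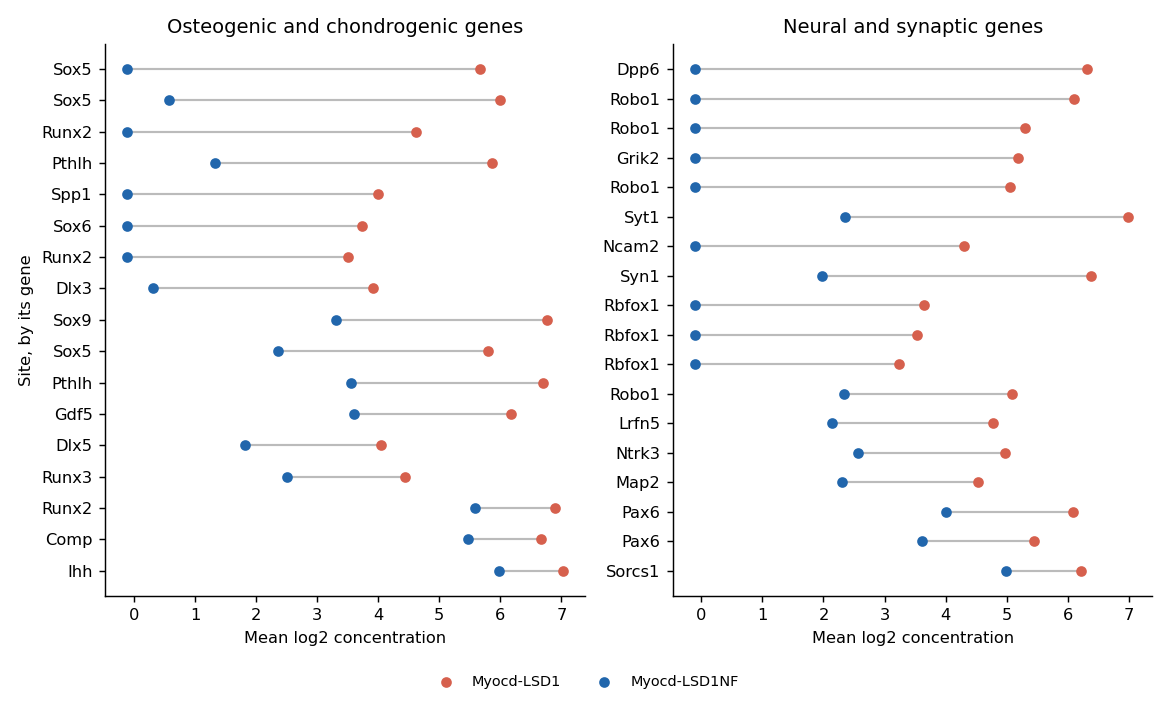
Each row is 1 of the 17 osteogenic and chondrogenic or 18 neural and synaptic sites, named by its gene and ordered by the difference. Points give the log2 of its mean concentration in Myocd-LSD1 cells (red) and Myocd-LSD1NF cells (blue). The blue points stand at the floor of -0.11 for 5 of the 17 and 9 of the 18 sites.

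Neural and synaptic genes had 18 sites in 12 genes, with 9 genes at a promoter and a median difference of 3.70 in the authors' deposited table. No higher site with FLAG carried the name of a gene of this list, although 1 lies within the span of the Robo1 cluster. The striated muscle, macrophage, pluripotency, H3K4 methylation and housekeeping lists had none either. The share of all genes with such a site was not taken, so nothing is read from this. Dpp6, an auxiliary subunit of potassium channels, had 6.31 in Myocd-LSD1 cells and -0.11 in Myocd-LSD1NF cells over a TSS per the authors' deposited table, without a control peak. Syt1, the calcium sensor of synaptic vesicles, had 6.98 in Myocd-LSD1 cells and 2.35 in Myocd-LSD1NF cells over its TSS per the authors' deposited table, with a control peak. Grik2, a kainate receptor, had 5.19 in Myocd-LSD1 cells and -0.11 in Myocd-LSD1NF cells at a distal site in the authors' deposited table. The nearest FLAG peaks to the Syt1 and Grik2 sites were 366771 and 730060 bp away.

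The neural crest list gave 6 sites in 5 genes, 5 of the sites with a control peak. Tfap2b, an early factor of that lineage, had 4.89 in Myocd-LSD1 cells and 0.28 in Myocd-LSD1NF cells per the authors' deposited table, and Zic1 had 3.82 and 1.05. Twist1 had 3.41 in Myocd-LSD1 cells and -0.11 in Myocd-LSD1NF cells at a distal site in the authors' deposited table. Ets1, an endothelial and mesenchymal factor, had 2 sites, the higher of which had 7.83 in Myocd-LSD1 cells and 7.04 in Myocd-LSD1NF cells per the authors' deposited table. Next to it on the chromosome, Fli1 had 2 intronic sites with 7.41 and 6.26 in Myocd-LSD1 cells, against 5.67 and 4.08 in Myocd-LSD1NF cells per the authors' deposited table.

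Among homeobox, T-box and forkhead factors, 24 of the 29 sites had a control peak. Barx2 had 8.20 in Myocd-LSD1 cells and 2.83 in Myocd-LSD1NF cells over its TSS, and 5.26 and -0.11 at a second promoter site, in the authors' deposited table. Dmrt2, a factor of somite development in mouse, had a second site with 5.47 in Myocd-LSD1 cells and 1.85 in Myocd-LSD1NF cells per the authors' deposited table. The HOX list had 4 of 32 genes. Hoxb8 had 7.24 in Myocd-LSD1 cells and 3.47 in Myocd-LSD1NF cells at its promoter, and Hoxb3 3.95 and -0.11 in an intron, in the authors' deposited table. Hoxb6, with 7.72 in Myocd-LSD1 cells and 7.09 in Myocd-LSD1NF cells, and Hoxd13, with 6.47 and 5.33, were high in both lines in the authors' deposited table.

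In the WNT list 11 of the 12 genes had a promoter site, beside 881 of all 1746 genes with a site (50.5%). Of the ligands, Wnt5a had 6.85 in Myocd-LSD1 cells and 4.82 in Myocd-LSD1NF cells over its TSS, and Wnt2 had promoter sites with 5.30 and 4.71 in Myocd-LSD1 cells, against 3.39 and 0.58 in Myocd-LSD1NF cells, per the authors' deposited table. Rspo3, which strengthens WNT signalling, had promoter sites with 5.99 and 5.45 in Myocd-LSD1 cells, against 2.42 and 2.18 in Myocd-LSD1NF cells per the authors' deposited table. The WNT and BMP inhibitor Sostdc1 had 4.78 in Myocd-LSD1 cells and -0.11 in Myocd-LSD1NF cells per the authors' deposited table.

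In the TGF-beta and BMP list 5 of 12 genes had a promoter site, and 18 sites had a median difference of 2.87 in the authors' deposited table. The receptors Tgfbr2 and Bmpr1b were among them. Tgfbr2 had an intronic site with 6.24 in Myocd-LSD1 cells and 2.93 in Myocd-LSD1NF cells per the authors' deposited table. Bmpr1b had 3 distal sites, with 5.67, 5.29 and 4.82 in Myocd-LSD1 cells, against 1.29, -0.11 and 2.98 in Myocd-LSD1NF cells per the authors' deposited table. The inhibitor Fst (follistatin) had 6.27 in Myocd-LSD1 cells and 2.43 in Myocd-LSD1NF cells per the authors' deposited table. Tgfb2 had 4 sites in its first intron, 2 of them already described, and the others had 7.65 and 6.52 in Myocd-LSD1 cells, against 3.31 and 4.84 in Myocd-LSD1NF cells per the authors' deposited table.

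Ion channel genes had 19 sites in 14 genes, 12 of them at a promoter, and 17 of the 19 sites had a control peak. Ano1, the calcium-activated chloride channel of SMC, had 8.21 in Myocd-LSD1 cells and 4.30 in Myocd-LSD1NF cells in exon 25 in the authors' deposited table. Kcnma1, the pore of the BK potassium channel that limits vascular contraction, had 4.87 in Myocd-LSD1 cells and -0.11 in Myocd-LSD1NF cells over its TSS per the authors' deposited table. Kcna6 had 3 sites, the highest with 6.30 in Myocd-LSD1 cells and -0.11 in Myocd-LSD1NF cells per the authors' deposited table. The Kcnma1 site had a control peak and the Kcna6 promoter site did not.

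Cyclic nucleotide genes, which set relaxation of SMC, had 10 sites in 8 genes, 7 of them at a promoter. Pde1c, a calmodulin-dependent phosphodiesterase, had 6.19 in Myocd-LSD1 cells and 2.58 in Myocd-LSD1NF cells over its TSS per the authors' deposited table. Gucy1a2, a subunit of the nitric oxide receptor, had 5.93 in Myocd-LSD1 cells and 2.62 in Myocd-LSD1NF cells per the authors' deposited table. Adcy2, an adenylyl cyclase, had 3.79 in Myocd-LSD1 and Pde10a 4.17, both with -0.11 in Myocd-LSD1NF cells, per the authors' deposited table. At least 2 lower sites also carried the name of Pde10a.

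SMC contractile genes had a site in 5 of 40 cases, or 12.5%, beside 9.03% of all genes with a peak. The 5 sites had differences of 0.93 to 1.75 with a median of 1.5 in the authors' deposited table, beside 2.65 over all 2032 sites, and none stood at the floor. The selection used this difference and the sites are few, so nothing is read from the medians. Of the 40 genes at least 13 had a lower site, among them at least 2 of the 5. The share of all genes with a lower site was not taken. These genes also had a median of 8 peaks, beside 3 over all genes, so nothing is read from the count. Lower sites off a Myocd-LSD1 peak were not counted. Mylk, myosin light chain kinase, had an intronic site with 4.28 in Myocd-LSD1 cells and 2.53 in Myocd-LSD1NF cells per the authors' deposited table. Cald1 (caldesmon) had 5.78 in Myocd-LSD1 cells and 4.13 in Myocd-LSD1NF cells 1210 bp from a TSS in the authors' deposited table, with a FLAG peak 996 bp away and 2 lower sites elsewhere in the gene. Synpo2 had 6.42 and 5.21, Sorbs2 6.57 and 5.07 and the integrin gene Itga5 6.66 and 5.73 in Myocd-LSD1 and Myocd-LSD1NF cells per the authors' deposited table.

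Among regulators of the SMC state, 9 of 39 genes had a site and at least 9 had a lower one. The count of genes with a lower site has no share over all genes beside it. Klf4, a repressor of the contractile state, had a site far upstream of its TSS with 4.65 in Myocd-LSD1 cells and 0.63 in Myocd-LSD1NF cells per the authors' deposited table. Tcf21, a factor of adventitial and coronary cell fate, had 5.15 in Myocd-LSD1 cells and 2.30 in Myocd-LSD1NF cells per the authors' deposited table. Gata4 had 3.61 and 0.67 at a distal site, and Tead1, a partner of YAP, 5.23 and 3.02 in an intron, in Myocd-LSD1 and Myocd-LSD1NF cells per the authors' deposited table. Jag1, a Notch ligand, had 6.22 and 4.99 at its promoter and Tbx18 had 6.39 and 5.01 in exon 6, in Myocd-LSD1 and Myocd-LSD1NF cells per the authors' deposited table. Foxc2, with 8.54 and 7.38, and Prrx2, with 8.18 and 7.14, were the highest in Myocd-LSD1 and Myocd-LSD1NF cells per the authors' deposited table. Of these 9, the sites of Klf4, Gata4, Jag1 and Tgfbr2 had no control peak.

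Extracellular matrix genes had 7 sites in 6 of 39 genes, beside at least 8 genes with a lower site. Here too the share of all genes with a lower site was not taken. Mmp2, a gelatinase, had 2 sites at its promoter under a single Myocd-LSD1 peak, with 4.90 and 4.55 in Myocd-LSD1 cells, against 2.26 and -0.11 in Myocd-LSD1NF cells per the authors' deposited table. Fbln1 (fibulin) had 6.68 in Myocd-LSD1 cells and 2.71 in Myocd-LSD1NF cells over its TSS per the authors' deposited table. Col6a3, a chain of collagen VI, had 3.19 in Myocd-LSD1 cells and -0.11 in Myocd-LSD1NF cells per the authors' deposited table.

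Lists of other cell types had a few sites each. In striated muscle genes there were 6 sites in 3 of 17 genes, 4 of them in Myom2, a sarcomere M-band protein. Its site over the TSS had 6.48 in Myocd-LSD1 cells and -0.11 in Myocd-LSD1NF cells per the authors' deposited table, without a control peak. Myog had 5.77 in Myocd-LSD1 cells and 4.28 in Myocd-LSD1NF cells, and Pax3 5.60 and 4.25, per the authors' deposited table, both with a control peak. The site named Myog lies in exon 1 of Ppfia4, 10286 bp from the Myog TSS. In the endothelial list Sox17 had 4.77 in Myocd-LSD1 cells and 0.58 in Myocd-LSD1NF cells per the authors' deposited table, and Fli1 was the only other gene. The fibroblast list had Twist1 and Tcf21, and the macrophage list had none. Cell cycle genes had 4 of 38, among them Cdk1, with 5.45 in Myocd-LSD1 cells and 1.88 in Myocd-LSD1NF cells in an intron, and Ccnd2 (cyclin D2), with 6.66 and 4.07 over its TSS, in the authors' deposited table. Bub1 had promoter sites with 6.38 and 6.03 in Myocd-LSD1 cells, against 4.58 and 4.70 in Myocd-LSD1NF cells per the authors' deposited table.

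The inflammatory list had Cxcl12, with 5.04 in Myocd-LSD1 cells and 1.11 in Myocd-LSD1NF cells, and Il33, with 3.83 and 1.64, both distal sites without a control peak, in the authors' deposited table. Of the cadherins, Cdh2 (N-cadherin) had 7.65 in Myocd-LSD1 cells and 7.05 in Myocd-LSD1NF cells in an intron, and Pcdh19 6.05 and 3.07 at its promoter, in the authors' deposited table. Kdm2b, a demethylase of histone H3, was the one gene of the H3K4 methylation machinery, with 5.82 in Myocd-LSD1 cells and 3.62 in Myocd-LSD1NF cells in an intron per the authors' deposited table. The pluripotency list had Klf4 and Prdm14, the second with 4.20 in Myocd-LSD1 cells and 0.67 in Myocd-LSD1NF cells per the authors' deposited table and a FLAG peak 902 bp away.

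The 3 sites farthest from any FLAG peak were those of LOC103693880, Brinp3 and Pabpc4l. LOC103693880 had a site over its TSS that was 2465279 bp from one, with 5.97 in Myocd-LSD1 cells and 4.32 in Myocd-LSD1NF cells per the authors' deposited table. Brinp3 was 1952730 bp away, with 3.53 in Myocd-LSD1 cells and -0.11 in Myocd-LSD1NF cells per the authors' deposited table. Pabpc4l was 1823585 bp away, with 4.63 in Myocd-LSD1 cells and -0.11 in Myocd-LSD1NF cells over its TSS per the authors' deposited table.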

How the data were processed

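H3K4me2 and FLAG CUT&Tag samples (13 in 4 groups) were analysed, made with a commercial kit per the labels' protocols. The tools Bowtie2, deepTools, MACS2, ChIPseeker, DiffBind and the build rn6 are named without versions or roles, per the submitters' processing notes. On duplicates, Tn5 offsets and scaling nothing is given in the sources used here. Per group the authors deposited 1 annotated peak list with a fold enrichment, a score, and -log10 p- and q-values per peak, per the file headers. Their deposited comparison gives a log2 concentration per line, a p-value, an FDR and a log2 difference, per the file headers. That difference equals Myocd-LSD1 minus Myocd-LSD1NF within 0.01. The test inside it is not stated, and p-values then measure only the spread between samples that may be technical.

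Overlaps of at least 1 bp were counted with starts turned to 1-based positions. Shares carry exact Clopper-Pearson 95% intervals, which cover counting error only. The members and the gene lists (22 lists, 771 entries, 628 with a peak) were chosen with earlier results of these data known. Genes named are those with the largest differences, highest levels, most sites, the smallest and largest gaps to FLAG and, per list, up to 4 with the largest difference (all for osteogenic, contractile and regulator genes). One gene taken by this rule is not reported here. Loci in clusters outside that rule (Kcnj5, Efna5) and genes tied with a named one (Cyp27a1, Dpf3) were named after their values were seen. Promoters were matched by transcript and by the place of the TSS, within 1 kb or 5% of its offset in the gene. A comparison of promoter GC content and motifs between classes was void, since 73.7% of 676 genes had a RefSeq promoter and at least 80% was needed. The overlap code was tested on simulated lists. Software was scipy 1.17.1, pandas 2.3.3 and numpy 2.4.6 under Python 3.11.15, with matplotlib 3.10.9 for plots.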

Additional observations from a re-analysis of the deposited data

How the results depend on the processing

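Of 50 alternative values, 29 stayed within the limits set (for counts 1.5 times the value reported, for shares and medians its 95% interval), 21 moved beyond them and 0 turned round. The number of sites ran from 1420 to 2609 and the osteogenic and chondrogenic genes with a site from 9 to 17. The median difference was 2.42 when a FLAG peak had to cover 50% of the site, 2.54 with the 50% of FLAG peaks strongest by q-value, 3.02 at an FDR of at most 0.01, 2.83 at a difference of at least 1 and 2.26 without sites at the floor. In the same order of settings, the share without a Myocd-LSD1NF peak was 55.7%, 59.0%, 66.3%, 67.8% and 54.1%. It was 86.9% with the strongest 50% of Myocd-LSD1NF peaks and 71.8% when such a peak had to cover 50% of the site. The share with a control peak was 68.3% under the stricter FLAG overlap, 62.1% at a difference of at least 1, 71.4% without floor sites, 36.8% with the strongest 50% of control peaks and 56.1% when the control peak had to cover 50% of the site. The promoter share was 49.2% without floor sites and 34.8% within 1 kb of a TSS. Genes with a FLAG peak elsewhere made up 71.6% under the stricter FLAG overlap and 42.6% with the strongest 50% of FLAG peaks. The latter setting removes peaks by construction, and both settings change the set of sites and genes. For the other moves the cause was not tested. An alternative chosen after seeing the data, moving each start by 1 bp, left 2032 sites. No paired analysis was possible because only means per line were deposited, and for the same reason no replicate could be left out. The window of another length around site centres was not run, since no rn6 genome was used here. Depth per sample is unknown, so a missing peak in a list may be a matter of depth.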
